A study of Danio rerio with 6 samples.

Results

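The gene models named Metazoa_SRP, copies of the RNA of the signal recognition particle (SRP), were examined in ovarian follicles of the zebrafish. They were found by name, as every Ensembl gene ID that carries the symbol Metazoa_SRP in any sheet of the gene table published with the study. The table holds 46 such IDs, and all 46 were present among the 31540 genes of the count table. RNA had been sequenced from follicles of wild-type fish of the AB strain in 6 libraries. PG follicles, in primary growth, gave 3 libraries and PV follicles, at the previtellogenic stage that follows follicle activation, gave the other 3. The methods state that each library came from the pooled ovaries of 3 fish, that that both stages were separated from the same ovaries by sieving; they name no treatment. The age of the fish is not given in the sources used here.

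The SRP is a particle of 1 RNA and several proteins that binds a signal peptide as it emerges from the ribosome, slows translation and brings the ribosome to the endoplasmic reticulum, where the protein is passed through the membrane. Its RNA is made by RNA polymerase III from a promoter with parts inside the gene, is protected at its end by the La protein and carries no long poly(A) tail. In the oocyte this route serves the proteins of the egg coat, membrane receptors and other secreted products. Ensembl gives the name Metazoa_SRP to gene models that match the Rfam family of this RNA, and vertebrate genomes can hold many copies and fragments of it, so the name does not tell a working gene from a fragment. The identity of the 46 copies rests on this name in the published gene table alone. A separate reference list of Ensembl names gives it to only 4 of the 46. Their sequences, lengths and positions are not analysed here, and no level is compared between copies per length.

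The way in which the names were collected fixes the direction of the comparison. All 46 IDs stand in the sheet of genes lower in PV follicles, which has 859 rows, and 0 stand in the 1998 rows read of the sheet of genes higher in PV follicles. A sheet that was not chosen by change was read for 1998 rows, of which 51, or 2.55%, are also in the sheet of lower genes, and it holds 4 of the 46 copies. A lower level in PV follicles is therefore what the names were taken from. It is described below for its size, its spread and its distribution over copies, with no p-value for any copy or for the sum.

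The count table holds raw read counts, and the totals per library ran from 14492086 in PG replicate 3 to 36603108 in PG replicate 1. Levels are given as TMM CPM, counts per 1000000 of a library size corrected by the TMM scaling of edgeR, and log2 changes are PV over PG. A gene was called changed when its adjusted p was at most 0.05 in edgeR's quasi-likelihood test (Benjamini-Hochberg adjustment) together with a fold change of at least 2. Of the 15899 genes that passed the filter on low counts, 949 were called lower in PV follicles (5.97%) and 2105 higher (13.2%). These calls depend on the scaling, since with library totals alone the median log2 change of all tested genes shifted by 0.41 and the calls became 415 lower and 3663 higher. The 8 oocyte markers, among them the egg coat genes zp2.1 and zp3b, summed to 10209 to 10516 TMM CPM in PG follicles and to 4322 to 4624 TMM CPM in PV follicles, so oocyte transcripts were abundant at both stages. In RNA from whole follicles, fewer cells of a type and less RNA per cell cannot be told apart.

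The 46 copies together held 2695 counts in PG replicate 1, 2485 in PG replicate 2 and 1620 in PG replicate 3. In PV follicles they held 270, 117 and 241 counts in replicates 1, 2 and 3. The 3 PG libraries thus gave 6800 counts of Metazoa_SRP and the 3 PV libraries 628. As a share of the uncorrected library total, the sum was 73.6 CPM in PG replicate 1 (95% exact Clopper-Pearson interval 70.9 to 76.5), 85.6 CPM in PG replicate 2 (82.2 to 89.0) and 111.8 CPM in PG replicate 3 (106.4 to 117.4). In PV follicles the share was 11.0 CPM in replicate 1 (9.70 to 12.4), 7.59 CPM in replicate 2 (6.28 to 9.10) and 10.7 CPM in replicate 3 (9.39 to 12.1). These intervals take each count as an independent read and leave out the spread between libraries. Reads that were amplified without molecular identifiers are not independent molecules, so the intervals may be too narrow even for counting error. No PV interval reached any PG interval, but the names came from a list of genes lower in PV follicles. Nothing is therefore read from this separation.

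After TMM scaling the sum was 85.2, 98.5 and 129.5 TMM CPM in PG replicates 1, 2 and 3, and 9.45, 6.56 and 9.35 TMM CPM in PV replicates 1, 2 and 3. The stage means were 104.4 ± 22.8 TMM CPM in PG follicles and 8.45 ± 1.64 TMM CPM in PV follicles (SD, n = 3 each), a ratio of 12.4 and a log2 change of -3.63. The sum in the lowest PG library was 9.02 times that in the highest PV library, a separation that the choice of names favours. With library totals in place of TMM the log2 change of the sum was -3.21, and leaving out each library in turn moved it between -3.75 and -3.44. By the methods the 3 libraries of a stage came from separate groups of fish, and no source says whether equal replicate numbers mark the same group.

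**Figure D1:**
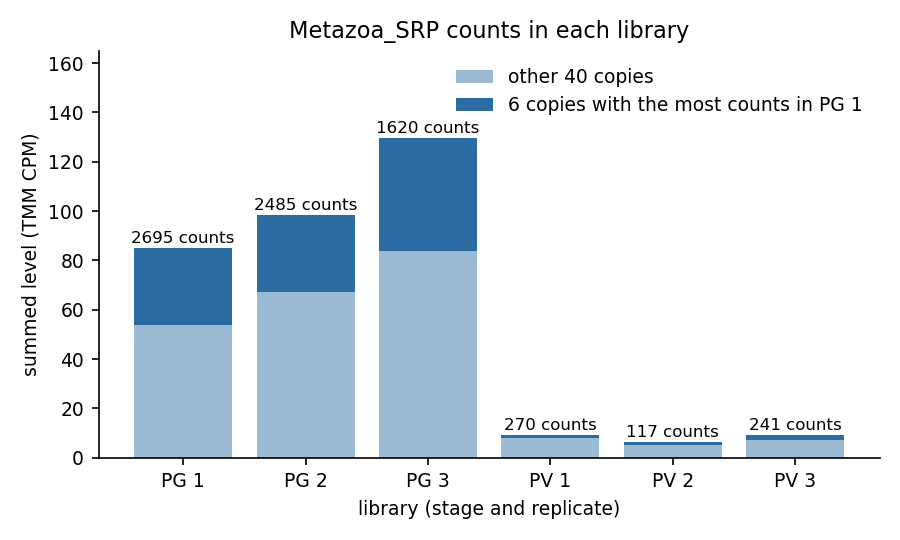
Summed level of the 46 Metazoa_SRP copies (TMM CPM, y axis) in each of the 6 libraries (x axis), with the raw counts above each bar. The darker section is the part held by the 6 copies with the most counts in PG replicate 1. The PG bars run from 85.2 to 129.5 and the PV bars from 6.56 to 9.45.

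The spread between replicates of the sum was wide for its level. Its coefficient of variation (CV, the SD as a percentage of the mean) was 21.8% over the 3 PG libraries and 19.4% over the 3 PV libraries. For comparison, the 1029 tested genes whose PG mean lay between 0.8 and 1.2 times that of the sum had a median CV of 3.62% over the same PG libraries. In PG follicles the spread lay with replicate 3, where the sum was 1.41 times the mean of replicates 1 and 2, and the CV of replicates 1 and 2 alone was 10.3%. Of the 46 copies, 37 had their highest PG level in replicate 3, against 34.2% of all tested genes, which were not matched in level. Copies can share reads, so they are not separate observations of this library. Many copies shared the excess of replicate 3, since without ENSDARG00000100893, the copy with the largest excess in that library, the ratio was still 1.35. In PV follicles the spread lay with replicate 2, and replicates 1 and 3 alone had a CV of 0.708%.

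Other measures also differed between these libraries. PG replicate 3 had the fewest counts of the PG libraries (14492086), and PV replicate 2 the fewest of the PV libraries (15412764), so the shallowest library was the highest within PG follicles and the lowest within PV follicles. The 4 blood markers summed to 37.6 TMM CPM in PG replicate 3 and to 30.1 and 27.6 TMM CPM in PG replicates 1 and 2. The 3 stroma markers summed to 9.44 TMM CPM in PG replicate 3, the lowest of the PG libraries (up to 16.3 TMM CPM), and the 3 endothelial markers to 7.84 TMM CPM, likewise the lowest (up to 12.4 TMM CPM). The part of depth and of other cell types in the level of replicate 3 was not tested.

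Each of the 46 copies had a lower mean level in PV than in PG follicles, and none had a PV value that reached its lowest PG value, which was so for 32.9% of all tested genes. The filter on low counts was passed by 39 copies, and all 39 were called lower, beside 5.97% of all tested genes. Since the names came from a list of lower genes, nothing is read from these counts. The other 7 copies (ENSDARG00000088254, ENSDARG00000098806, ENSDARG00000104289, ENSDARG00000100920, ENSDARG00000103599, ENSDARG00000099990 and ENSDARG00000098085) held too few counts to be tested. The mean level of a copy ran from 0.301 to 8.15 TMM CPM in PG follicles (median 1.74) and from 0.0117 to 0.484 TMM CPM in PV follicles (median 0.177). The log2 ratio of PV to PG means ran from -5.43 to -2.48 with a median of -3.53, which is a median fold of 11.6. The fold ran from 5.56 for ENSDARG00000098085 to 43.1 for ENSDARG00000100893, which had 9 and 10 PV counts in all. With the counts of each stage pooled, intervals from counting error were 2.63 to 12.6 and 19.8 to 77.5. That every copy was lower follows from the choice of names.

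**Figure D2:**
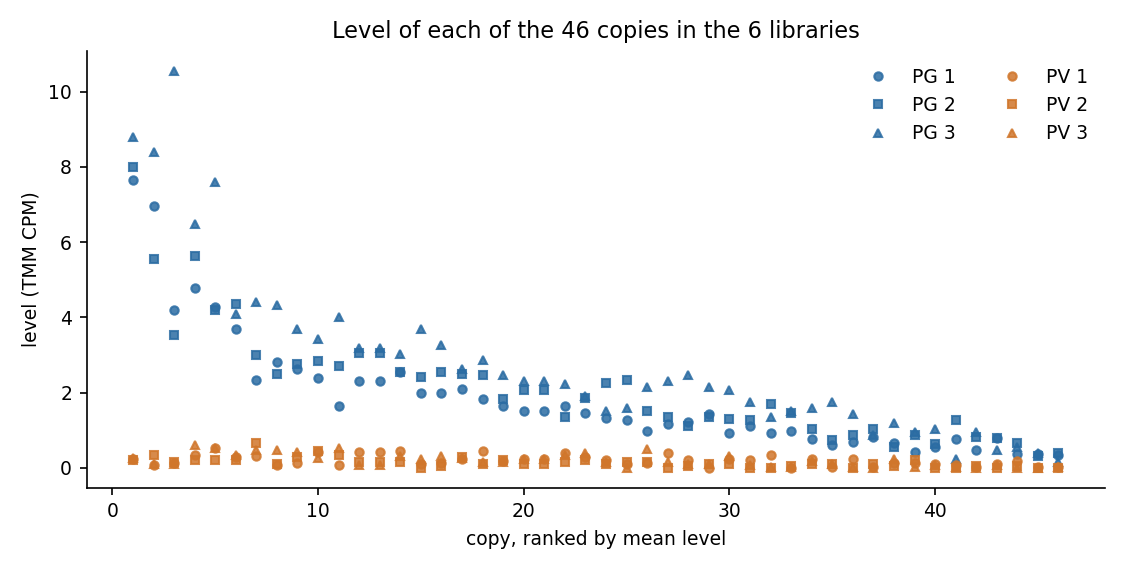
Level of each of the 46 copies (TMM CPM, y axis), ranked by mean level (x axis), in the 3 PG libraries (blue) and the 3 PV libraries (orange), with 1 point per copy and library. For every copy the PG points lie above the PV points, and the PG means run from 0.301 to 8.15 and the PV means from 0.0117 to 0.484.

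The 46 copies were detected without exception in PG follicles, which a choice of names from a list of genes lower in PV follicles favours. No PG library held 0 counts of any copy, and the smallest PG count was 2 and the largest 242. PV follicles were at the limit of detection for many copies. Of the 138 values of a copy in a PV library 17 were 0 (12.3%), and 16 copies were at 0 in at least 1 PV library. The number of copies at 0 was 2 in PV replicate 1, 10 in replicate 2 and 5 in replicate 3. The median copy held 45.5, 46.5 and 28.5 counts in PG replicates 1, 2 and 3 and 5.5, 2 and 4 counts in PV replicates 1, 2 and 3. A count of 0 allows a level of up to 3 counts, which is between 0.122 and 0.195 CPM of the PV totals, so copies at 0 in a PV library may still be present there.

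The spread of single copies was described beside that of other genes. The CV of the 39 tested copies over the PG libraries had a median of 26.0%, and the 4502 other tested genes within the same range of PG means had a median of 18.7%. The range was shared but the means were not matched gene by gene, and counting error is a large part of the CV at counts this low, so these medians do not show that the copies varied more than other genes at the same level.

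No single copy dominated the sum in any library. The leading copy was ENSDARG00000101764 in PG replicates 1 and 2, with 8.98% and 8.13% of the Metazoa_SRP counts. In PG replicate 3 the leading copy was ENSDARG00000100893 with 8.15%. A different copy led in each PV library, namely ENSDARG00000104159 with 5.56% in replicate 1, ENSDARG00000102504 with 10.3% in replicate 2 and ENSDARG00000098875 with 6.64% in replicate 3, and these leads rest on 15, 12 and 16 counts. The 5 leading copies of a library held 32.7%, 28.2% and 32.3% of the sum in PG replicates 1, 2 and 3 and 24.1%, 31.6% and 28.6% in PV replicates 1, 2 and 3. It took 11, 13 and 11 copies to reach 50% of the sum in the PG libraries and 12, 11 and 11 copies in the PV libraries. The effective number of copies, which is 1 over the sum of squared shares and would be 46 if all held the same, was 26.8 to 30.8 in PG and 24.8 to 31.7 in PV libraries. By these measures the evenness of the sum over copies overlapped between the stages. They depend on the number of counts, however, which was 1620 to 2695 in PG and 117 to 270 in PV libraries. The overlap therefore does not show that the stages were alike in evenness.

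ENSDARG00000101764 had the highest mean of all copies, with 242, 202 and 110 counts in PG replicates 1, 2 and 3 and 7, 4 and 7 counts in PV replicates 1, 2 and 3. Its level was 8.15 ± 0.587 TMM CPM in PG and 0.247 ± 0.0238 TMM CPM in PV follicles (SD, n = 3 each), and the log2 ratio was -5.04. It had the smallest CV of all copies in PG follicles, 7.20%, with a level in replicate 3 of 1.12 times the mean of the others. ENSDARG00000098102 held 220, 140 and 105 counts in PG and 2, 6 and 3 in PV libraries, with means of 6.97 ± 1.42 and 0.174 ± 0.142 TMM CPM and a log2 ratio of -5.32. ENSDARG00000100893 held 133, 89 and 132 counts in PG and 4, 3 and 3 in PV libraries. As the PG replicate with 132 counts was the shallowest, its level there was 10.6 TMM CPM, or 2.73 times the mean of replicates 1 and 2. Its PG mean was 6.10 ± 3.88 TMM CPM, its PV mean 0.142 ± 0.0259 TMM CPM, and its log2 ratio of -5.43 the lowest of the 46. Replicates 1 and 2 of the PG follicles alone also lay above all its PV values, and the lower of them was at 3.53 TMM CPM.

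The next copies by level were less depleted in PV follicles. ENSDARG00000098875 held 151, 142 and 81 counts in PG and 10, 4 and 16 in PV libraries, with means of 5.63 ± 0.852 and 0.398 ± 0.203 TMM CPM and a log2 ratio of -3.82. ENSDARG00000104159 held 135, 106 and 95 counts in PG and 15, 4 and 14 in PV libraries, with means of 5.36 ± 1.94 and 0.431 ± 0.179 TMM CPM and a log2 ratio of -3.64. Their ratios lay near that of the sum, whereas the 3 copies described before them lay well under it.

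Among the 5 copies with the lowest ratios of PV to PG, ENSDARG00000100893, ENSDARG00000098102 and ENSDARG00000101764 were also among the 5 of highest level. The remaining pair were low copies whose ratios rest on few PV counts. ENSDARG00000100310 held 31, 37 and 19 counts in PG and 0, 1 and 1 in PV libraries, and the interval of its pooled fold from counting error ran from 12.2 to 380. ENSDARG00000088254 held 12, 8 and 5 counts in PG and 1, 0 and 0 in PV libraries, and the same interval ran from 4.26 to 1068. The lower level of these copies in PV follicles follows from the choice of names, and their counts do not fix its size. In all, 6 copies had 3 or fewer counts over the 3 PV libraries.

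At the other end stood 5 copies that were between 5.56 and 5.87 times lower in PV follicles. ENSDARG00000098085 held 13, 22 and 12 counts in PG and 4, 4 and 1 in PV libraries, a log2 ratio of -2.48. ENSDARG00000100193 held 21, 14 and 15 counts in PG and 4, 1 and 6 in PV libraries, a log2 ratio of -2.50. Both were low at either stage, and their lowest PG counts were still above their highest PV counts. ENSDARG00000102487 held 31, 38 and 27 counts in PG and 4, 3 and 13 in PV libraries (log2 ratio -2.51). ENSDARG00000105097 held 52, 34 and 28 counts in PG and 11, 3 and 9 in PV libraries (log2 ratio -2.54), and ENSDARG00000103526 held 46, 47 and 24 in PG and 8, 4 and 10 in PV libraries (log2 ratio -2.55). The CV of these copies over the PV libraries ran from 28.0% to 74.9%, wider than the differences between their ratios, so their order among themselves is not resolved. The largest scatter within PG follicles was that of ENSDARG00000104289, named after its values were seen, with 24, 32 and 3 counts in PG replicates 1, 2 and 3 (CV 68.1%), where replicate 3 was at 0.237 times the mean of the others.

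The copies with the most counts were also compared with the rest. The 6 copies with the most counts in PG replicate 1 were taken and that library was then left out. These were ENSDARG00000101764, ENSDARG00000098102, ENSDARG00000098875, ENSDARG00000104159, ENSDARG00000100893 and ENSDARG00000098617. The same 6 copies also had the highest PG means, so the choice is not independent of the PG values compared. Choosing copies that are high in PG follicles favours a large ratio of PG to PV. Together the 6 copies had a mean of 38.6 TMM CPM in PG replicates 2 and 3 and 1.68 TMM CPM in PV follicles, a ratio of 23.0. The other 40 copies had 75.4 and 6.78 TMM CPM, a ratio of 11.1. Over all PG libraries, log2 ratios of single copies ran from -5.43 to -3.64 among the 6 and from -5.39 to -2.48 among the other 40. Single copies among the other 40 thus had ratios as low as those of the 6, some on few PV counts. The 6 copies held 31.8% and 35.4% of the Metazoa_SRP counts in PG replicates 2 and 3, and 17.0%, 21.4% and 21.6% in PV replicates 1, 2 and 3, so the 2 stages did not overlap in this share. Behind these PV shares stand 46, 25 and 52 counts. The difference was carried by 3 of the 6, since the folds of PG over PV means lay between 33.0 and 43.1 for ENSDARG00000101764, ENSDARG00000098102 and ENSDARG00000100893. The other 3, with folds of 14.1 for ENSDARG00000098875, 12.4 for ENSDARG00000104159 and 14.2 for ENSDARG00000098617, lay near the fold of 12.4 of the sum. This comparison was made after the values were seen and is given without a test. The number of leading copies, 6, was also set then.

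**Figure D3:**
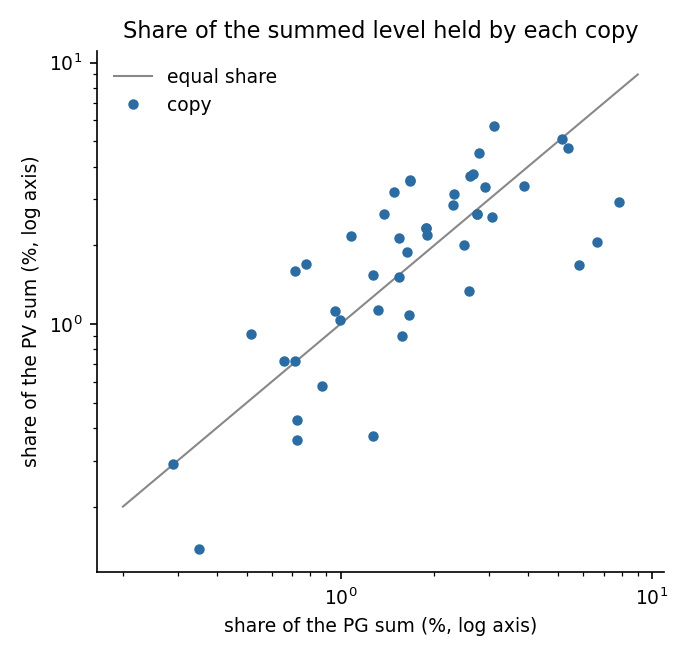
Share of the summed level held by each of the 46 copies in PG follicles (x axis, %) and in PV follicles (y axis, %), both on log axes, with 1 point per copy and a line of equal share. The 3 points farthest below the line at the right are ENSDARG00000101764, ENSDARG00000098102 and ENSDARG00000100893.

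The order of the copies by count was much the same in the PG libraries, with a Spearman rho of 0.900 to 0.955 between pairs of them over the 46 copies. Between pairs of PV libraries rho was 0.329 to 0.573, and between a PG and a PV library 0.415 to 0.701. The points share their library and related sequences and the PV counts are small, so these values describe the tables and carry no p-value.

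Copies that are alike can share reads. The methods name TopHat2 with default parameters and StringTie, but do not state how reads that match several copies were assigned. The counts bear on this directly, since 2 pairs of copies had the same count in all 6 libraries. ENSDARG00000098470 and ENSDARG00000102811 both held 73, 77 and 40 counts in PG and 12, 3 and 2 in PV libraries. ENSDARG00000103338 and ENSDARG00000104229 both held 48, 52 and 29 counts in PG and 7, 2 and 6 in PV libraries. Only 28 of the 17942 genes with at least 20 counts in all shared their whole set of counts with another gene, and these 4 copies are among them. No gene outside the 46 had the same counts as a copy. The 46 IDs thus give 44 distinct profiles, and with each profile counted once the log2 change of the sum was -3.63. Values of single copies, and their ranking, are uncertain to the extent that reads were divided between near-identical copies, whereas the sum does not depend on how a read was divided among the 46, unless reads were counted at several copies at once. Reads divided with copies outside the 46 would still alter the sum, and this was not tested.

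The 4 copies that also stand in the sheet not chosen by change spanned log2 ratios from -4.58 to -2.51. ENSDARG00000098168 was among the more depleted, with 63, 61 and 46 counts in PG and 3, 0 and 6 in PV libraries (log2 ratio -4.58). ENSDARG00000101384 held 29, 33 and 26 counts in PG and 7, 2 and 8 in PV libraries (log2 ratio -2.69). The other two, ENSDARG00000102487 and ENSDARG00000103526, are among the 5 of smallest difference.

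A list of names that was made without regard to these data gave a second view. The reference table of Ensembl names holds 76 IDs named Metazoa_SRP, of which 20 were in the count table, 4 of them among the 46 copies (ENSDARG00000088254, ENSDARG00000091337, ENSDARG00000098483 and ENSDARG00000105097). The 16 other IDs bring the named copies to 62. These 20 IDs held 162, 136 and 103 counts in PG replicates 1, 2 and 3 and 33, 14 and 23 in PV replicates 1, 2 and 3, or 6.25 ± 1.73 against 0.944 ± 0.190 TMM CPM (SD, n = 3 each), a ratio of 6.62. Only 3 of the 20 passed the filter on low counts, and all 3 were called lower in PV follicles (5.97% of all tested genes were). The 3 are among the 46 copies, and a gene this low passes the filter only through the stage where it is higher.

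The 16 other copies were rare. Together they held 35, 40 and 19 counts in PG replicates 1, 2 and 3 and 8, 8 and 6 in PV replicates 1, 2 and 3, that is 1.40 ± 0.260 against 0.320 ± 0.113 TMM CPM. Of the 16, 7 had no count in any library and 9 had counts, and all 9 had a lower mean in PV than in PG follicles, but none held enough counts to be tested. Some of the 9, such as ENSDARG00000088785, had counts in PG follicles alone. The share of equally rare genes with a lower PV mean was not determined, so nothing is read from this number. The pooled fold of PG over PV was 4.45 with an interval from counting error of 2.77 to 7.43, beside the ratio of 12.4 of the 46 copies, which unlike these were taken from a list of lower genes. The highest of them, ENSDARG00000091697, held 8, 16 and 4 counts in PG and 5, 1 and 3 in PV libraries, and ENSDARG00000103999 held 5, 8 and 5 in PG and 1, 1 and 0 in PV libraries. In TMM CPM, where the depth of the libraries is taken into account, the PG values of ENSDARG00000091697 ran from 0.253 to 0.634 and its PV values from 0.0561 to 0.175. The lowest of the 46 copies, ENSDARG00000100920, held 11, 10 and 2 counts in PG and 1, 0 and 1 in PV libraries and so lay within the range of these other copies. All 62 named copies together had a log2 change of -3.59.

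The protein partners of the RNA had small log2 changes beside those of the copies, which were taken from a list of lower genes. The SRP proteins and the receptor that docks the particle on the endoplasmic reticulum were represented by 7 genes, all of them tested. Of these, 1 was called lower in PV follicles and 0 higher, where 5.97% and 13.2% of all tested genes were called. Their median log2 change was -0.34, beside 0.03 over all tested genes and -3.39 over the 39 tested copies. By the adjusted p alone, 5 of the 7 were lower, 1 was higher and 1 did not pass, where 29.9% of all tested genes passed with a lower and 32.7% with a higher level (edgeR).

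The called gene was srp19 (ENSDARG00000035699), whose protein binds the RNA early in assembly and prepares it for srp54. It had 56.8, 56.7 and 63.3 TMM CPM in PG replicates 1, 2 and 3 and 23.1, 25.6 and 28.0 TMM CPM in PV replicates 1, 2 and 3. The log2 change was -1.20 (SE 0.08, edgeR adjusted p = 8.29e-07), and the stages did not overlap. With library totals in place of TMM the log2 change was -0.79, short of the fold threshold.

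The other partners stayed within the fold threshold. srp68 and srp72, which form a dimer on the RNA, went from 197.7 to 128.0 and from 206.5 to 134.9 TMM CPM, with log2 changes of -0.63 and -0.61 (edgeR adjusted p = 6.59e-07 and 7.42e-07). srp9, part of the pair that slows translation, was higher in PV follicles, at 38.9 ± 1.57 against 51.0 ± 3.95 TMM CPM (log2 change 0.39, SE 0.07, edgeR adjusted p = 0.000797). srp54, the GTPase that binds the signal peptide, had a log2 change of -0.17 (adjusted p = 0.0032). The receptor subunits srpra and srprb had log2 changes of -0.06 (adjusted p = 0.215) and -0.34 (adjusted p = 9.48e-05). With library totals alone the last 3 genes turned to positive log2 changes of 0.24, 0.36 and 0.08, so their direction depends on the scaling. The gene of srp14, the partner of srp9, was not matched by symbol and is not analysed here.

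**Figure D4:**
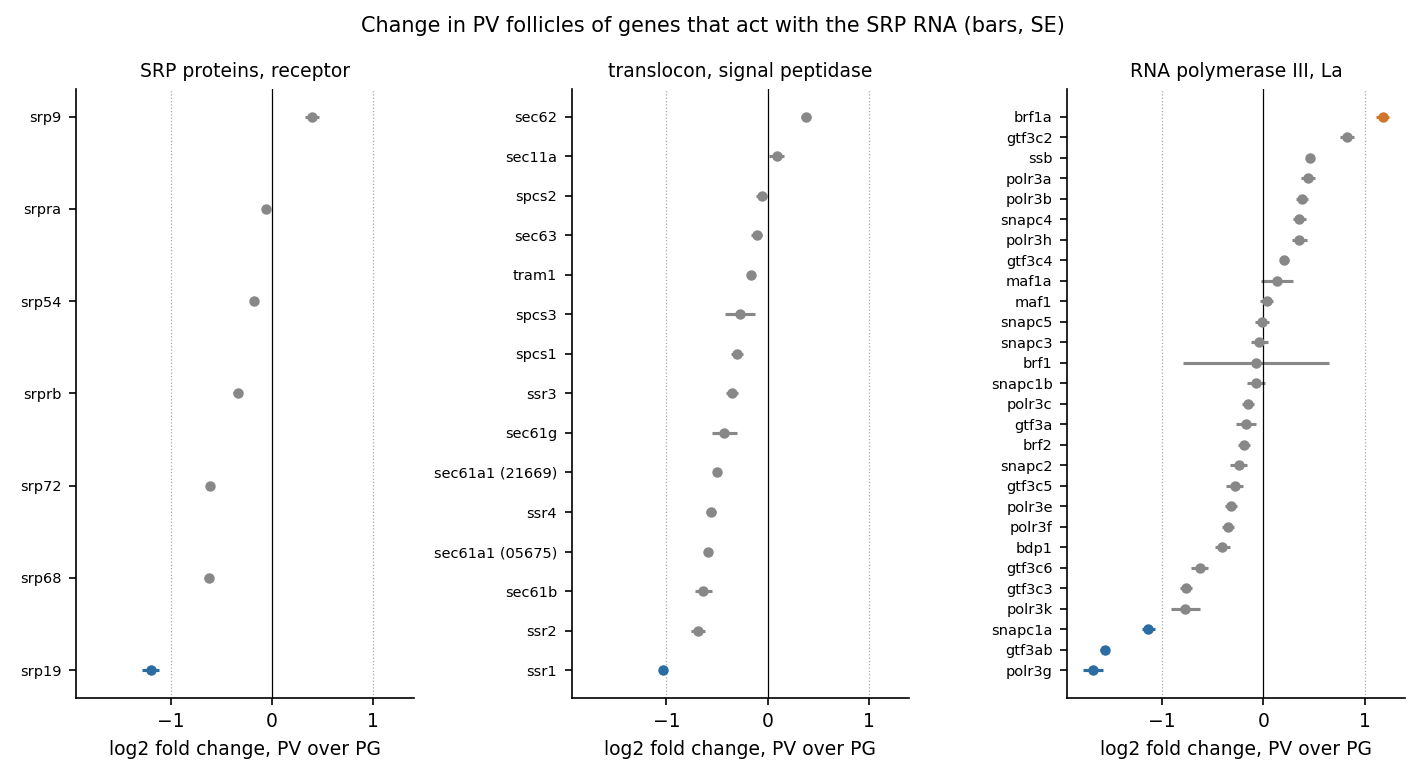
Log2 fold change of PV over PG follicles (x axis, points) with its SE (bars) for the tested genes of the SRP proteins and receptor (7), the translocon and signal peptidase (15) and RNA polymerase III with La (28), from edgeR. Blue marks genes called lower, orange a gene called higher and grey genes not called, and dotted lines mark a fold of 2. Most points lie between the dotted lines, and srp19 is the only called gene of the first panel.

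The channel and enzymes that act after the SRP were compared in the same way. Of 15 tested genes of the translocon, its associated proteins and the signal peptidase, 1 was called lower and 0 higher, beside 5.97% and 13.2% of all tested genes, with a median log2 change of -0.35. By the adjusted p alone 10 were lower, 1 was higher and 4 did not pass, beside 29.9% lower and 32.7% higher among all tested genes. The called gene was ssr1 (ENSDARG00000101627), which encodes a subunit of the translocon-associated protein complex, at 246.6 ± 4.22 TMM CPM in PG and 120.6 ± 2.85 TMM CPM in PV follicles (log2 change -1.03, SE 0.04, edgeR adjusted p = 2.04e-08). With library totals its log2 change was -0.62 and it was no longer called.

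The machinery that makes and protects such RNAs had genes on both sides. In the list of RNA polymerase III, its transcription factors and La, 28 of 30 genes were tested, of which 3 were called lower and 1 higher, beside 5.97% and 13.2% of all tested genes, and the median log2 change was -0.11. By the adjusted p alone, 13 were lower, 8 were higher and 7 did not pass, beside 29.9% and 32.7% of all tested genes. With 19.2% of all tested genes called in either direction, the 4 called genes do not set this list apart. The largest fall was that of polr3g (ENSDARG00000024687), a subunit of 1 form of the polymerase that is known from mammalian stem cells, from 19.7, 19.1 and 17.6 TMM CPM in PG to 5.81, 5.49 and 6.25 TMM CPM in PV replicates 1, 2 and 3 (log2 change -1.69, SE 0.10, edgeR adjusted p = 3.14e-07). gtf3ab (ENSDARG00000071583) is named as a form of TFIIIA, the factor that binds inside 5S rRNA genes and in amphibian oocytes also stores 5S rRNA. It fell from 1104 ± 29.3 to 372.4 ± 15.1 TMM CPM (log2 change -1.57, SE 0.04, edgeR adjusted p = 1.99e-09).

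snapc1a (ENSDARG00000029569), a subunit of the complex that binds promoters of small nuclear RNAs, went from 61.0 ± 2.75 to 27.7 ± 1.35 TMM CPM (log2 change -1.14, SE 0.06, edgeR adjusted p = 2.39e-07). The gene called higher was brf1a (ENSDARG00000017835), a subunit of the factor TFIIIB that recruits the polymerase, at 29.3 ± 1.66 TMM CPM in PG and 66.1 ± 3.03 TMM CPM in PV follicles (log2 change 1.18, SE 0.07, edgeR adjusted p = 2.22e-07). The gene of La, ssb, was not called and had a log2 change of 0.46. With library totals 2 of these genes were called lower and 2 higher, because snapc1a dropped to a log2 change of -0.72 and gtf3c2 passed the threshold.

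Other small RNAs were counted for comparison. rn7sk, the RNA that holds the elongation factor P-TEFb inactive and is also made by RNA polymerase III, held 124, 106 and 34 counts in PG replicates 1, 2 and 3 and 45, 16 and 31 in PV replicates 1, 2 and 3. Its log2 change was -1.55 (SE 0.28), and unlike the Metazoa_SRP sum it was lowest in PG replicate 3, at 2.72 TMM CPM against 3.92 TMM CPM in replicate 1. 5_8S_rRNA (ENSDARG00000081218), a ribosomal RNA cut from the precursor made by RNA polymerase I, held 53, 32 and 18 counts in PG and 318, 108 and 425 in PV libraries, a log2 change of 2.94 (SE 0.35). Both names come from the lists of changed genes, so no p-value is given, and the same holds for snoU85 and Telomerase-vert. snoU85, a guide RNA for the modification of spliceosomal RNA, held 54, 62 and 37 counts in PG and 12, 10 and 18 in PV libraries, and Telomerase-vert, the template RNA of telomerase, held 14, 12 and 7 in PG and 3, 2 and 2 in PV libraries.

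Small RNAs whose names were not chosen by change had few counts. The 642 genes named 5S_rRNA, made by RNA polymerase III, held 12, 10 and 3 counts in PG replicates 1, 2 and 3 and 23, 17 and 14 in PV replicates 1, 2 and 3. The 73 genes named U6 held 1, 2 and 1 counts in PG and 4, 4 and 5 in PV libraries, and the 51 genes named U1 held 5, 10 and 4 in PG and 9, 5 and 6 in PV libraries. The 23 genes named SNORA, guides for the pseudouridylation of RNA, held 38, 26 and 13 counts in PG and 25, 13 and 15 in PV libraries. The counts of RNaseP_nuc, the RNA of the enzyme that trims tRNA precursors, were 7, 3 and 2 in PG and 3, 2 and 6 in PV libraries over 2 genes. In TMM CPM, 5S_rRNA and U6 were higher in every PV than in every PG library, and SNORA was lower in every PV library. U1 and RNaseP_nuc overlapped, as did the genes named SNORD, U3, U4 and U5. The U6 values rest on 1 to 5 counts per library. Among all tested genes, 32.9% had every PG value above every PV value, as SNORA did. The share with the opposite order, that of 5S_rRNA and U6, was not determined. Nothing is therefore read from these orders. The Metazoa_SRP copies held more counts in PG follicles than these names, but they were taken from a list of genes lower in PV follicles. Such a choice favours copies with many PG counts, so nothing is read from this contrast. The 16 copies named only in the reference list summed to 1.40 TMM CPM in PG follicles, beside 1.09 TMM CPM for SNORA. The selection of RNA for the libraries is not given in the sources used here. The counts therefore do not give the amounts of these RNAs in the follicles.

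**Figure D5:**
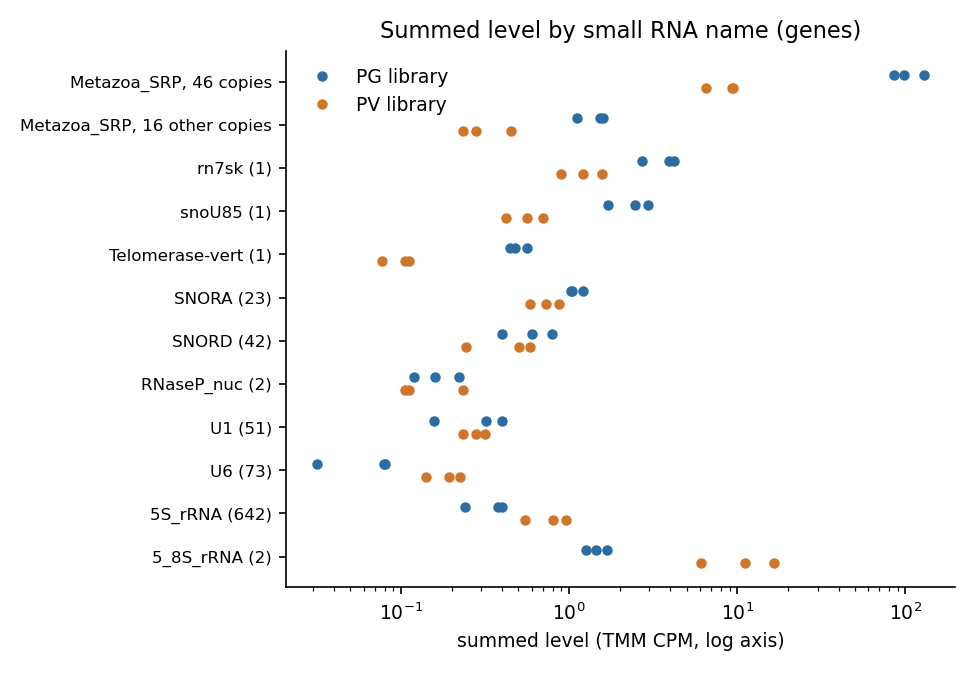
Summed level (TMM CPM, log x axis) of small RNAs grouped by name (y axis, with the number of genes in brackets), with 1 blue point per PG library and 1 orange point per PV library. The 46 Metazoa_SRP copies lie at 85.2 to 129.5 in PG and 6.56 to 9.45 in PV libraries, and 5_8S_rRNA, 5S_rRNA and U6 lie higher in PV libraries.

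Markers of cell types differed between the stages in both directions, and their counts of calls stand beside 5.97% of all tested genes called lower and 13.2% called higher. The 4 blood markers summed to 27.6 to 37.6 TMM CPM in PG and 7.14 to 18.6 TMM CPM in PV follicles, and 2 of the 4 were called lower. Early germ cell markers, of which 3 of 4 had counts and dmc1 was at 0 in all libraries, summed to 47.4 to 51.5 TMM CPM in PG and 16.1 to 18.2 TMM CPM in PV follicles, with 2 called lower. Of 8 oocyte markers 3 were called lower. The 8 markers of the follicle cells around the oocyte summed to 240.5 to 251.8 TMM CPM in PG and 186.0 to 203.7 TMM CPM in PV follicles. Only 6 of these 8 were tested, however, and 5 of the 6 were called higher. Stroma, with 9.44 to 16.3 TMM CPM in PG and 25.6 to 27.6 TMM CPM in PV follicles, and endothelium, with 7.84 to 12.4 and 16.3 to 20.2 TMM CPM, each had 2 of 3 markers called higher. The 4 leukocyte markers summed to 7.36 to 8.72 and 6.64 to 8.02 TMM CPM, with none called. The largest ratio of PG to PV among these lists was 2.91, that of the early germ cell markers, beside 12.4 for the Metazoa_SRP sum, and the part of cell composition in the difference was not tested.

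Mitochondrial and histone messages, whose tails differ from those of most messages, were also compared between the libraries. The 13 mitochondrial messages, which were all called higher in PV follicles (13.2% of all tested genes were), summed to 431.3 to 517.2 TMM CPM in PG and 6578 to 7087 TMM CPM in PV follicles, a log2 ratio of 3.81. Histone genes, 19 by symbol, many of them named in the list of changed genes, held 687, 623 and 351 counts in PG replicates 1, 2 and 3 and 536, 272 and 514 in PV replicates 1, 2 and 3, a log2 ratio of -0.47 for their sum, and 11 of the 16 tested were called lower, beside 5.97% of all tested genes. As many of these names come from the list of changed genes, nothing is read from the histone count. The part of RNA selection or quality in the Metazoa_SRP difference was not tested.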

How the data were processed

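Libraries were assigned to PG or PV by their labels. The authors aligned the reads to GRCz10 with TopHat2 at its default parameters and assembled transcripts with StringTie. They deposited the raw counts that its prepDE script gave for reference features. They also deposited a normalized signal, which equals those counts divided by 1 DESeq2 size factor per library (0.554 to 1.42) and served only to check this. Labels and methods name different library kits, and neither states how RNA was selected. Metazoa_SRP copies, gene lists and marker lists were chosen with earlier results of these data known.

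Counts were summed over copies and divided by TMM library sizes. Genes passing filterByExpr (minimum count 10, minimum total 15) were compared between stages with the quasi-likelihood test of edgeR (edgeR 4.0.16, limma 3.58.1, R 4.3.3; Python 3.11.15, scipy 1.17.1, matplotlib 3.10.9), with DESeq2 1.42.0 as an alternative. Simulated counts for 15899 genes with 200 changed gave back 192 of them with 2 other calls. Changed genes had a log2 change of 2 in either direction. All genes were given the same variation between replicates beyond counting error (8.4%). The recovery holds for these settings only. A permutation test of 3 against 3 libraries cannot go below p = 0.1, so none was used. Intervals of shares are exact Clopper-Pearson, and intervals of pooled folds are exact binomial.

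Copies named were the 5 of highest mean, the 5 of largest and the 5 of smallest fall, the 4 in the unselected sheet and those with equal counts. All tested SRP protein genes, the called genes of the other lists, rn7sk, 5_8S_rRNA and RNaseP_nuc were named too; other names were chosen after their values were seen. Alternatives were other scalings, filters and tests, adjusted p alone, a replicate block, equal copies counted once, the leading copy left out and each library left out. Published fold changes and p-values in the supplementary tables were not used.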

Additional observations from a re-analysis of the deposited data

How the results depend on the processing

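The direction of the Metazoa_SRP sum was fixed by how the names were collected, so only its size is compared here. Over the scalings, copy choices and omitted libraries tried, its log2 change lay between -3.75 and -3.21. It was -3.59 with all 62 named copies and -3.56 without ENSDARG00000100893, both chosen after the data were seen. The tested copies called lower were 39 with the replicate block and with library totals, and 37 with equal copies once. They were 44 of 46 without a filter, 46 with DESeq2 and 39 to 44 with 1 library left out. Among all genes, 976 of 23059 were called lower without a filter and 976 of 31540 with DESeq2. The names came from a list of lower genes that the authors made with DESeq2 from these data. The calls of the copies were thus favoured by the choice of names, and nothing is read from them. A minimum of 10 counts in every library left no copy to test, and gave 1837 calls among all genes. The CV of the sum ran from 10.3% to 29.2% in PG and from 0.708% to 25.5% in PV follicles when 1 library was left out.

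With library totals, 0 genes of the SRP proteins and 0 of the translocon were called, srprb, srpra and srp54 turned to log2 changes of 0.076, 0.36 and 0.24, and 89.8% of the calls among all genes were higher in PV follicles against 68.9% with TMM. With the adjusted p alone, 6 SRP protein genes, 21 genes of RNA polymerase III and La, 11 of the translocon and 9943 of all genes passed. The replicate numbers are shared between stages but may not mark the same fish, and deviations of same-numbered libraries had correlations of -0.0149, -0.00508 and 0.023 over 12229 genes. With the replicate number as a block, 860 genes were called lower and 1983 higher, and no number of calls among the copies or lists changed. The low counts in PV follicles limit the ratio of single copies, and lengths, sequences and the sharing of reads between copies limit any comparison among them.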
